A study of Mus musculus with 9 samples.

Results

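The genes described here encode the postsynaptic scaffold of excitatory synapses and the adhesion and secreted proteins that organize synapses. They are a list of 38 gene symbols, each matched to 1 row of a table of 35112 genes, and all 38 passed the filter on low counts that left 21900 genes for testing (the lowest count of a member in a library was 103). RNA came from the brains of wild type C57BL/6 mice, taken 72 h after treatment, in 3 groups of 3 mice. The sham group had the control treatment, the ICH group had an intracerebral haemorrhage, which is bleeding into the brain tissue, and the ICH+P7C3-A20 group had the haemorrhage and P7C3-A20, a neuroprotective aminopropyl carbazole compound. Mice were allotted to groups at random and the libraries are separate mice. The sources used here give neither how the haemorrhage was made nor the dose of the compound, the age of the mice or the region of brain sampled. The series asks how the compound alters gene expression after the haemorrhage, so ICH is set against sham, and the mice given the compound are set against each of those groups; any pair of these comparisons shares a group of mice, so their values stand side by side and are not independent of each other.

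The postsynaptic density is the protein mesh beneath the membrane of an excitatory synapse that holds glutamate receptors opposite the site of transmitter release. MAGUK proteins such as PSD-95 bind receptors and adhesion molecules, SAPAP proteins tie the MAGUKs to SHANK proteins, and HOMER proteins link SHANK to metabotropic glutamate receptors and to calcium stores. CaMKII, the calcium- and calmodulin-dependent kinase, is abundant there and is required for long-term potentiation. Across the cleft, presynaptic neurexins bind postsynaptic neuroligins and LRRTM proteins, while secreted cerebellins and neuronal pentraxins bridge or cluster receptors from outside the cell.

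Promoter windows are shown first for the 4 members with the largest called log2 changes in ICH against sham among those with a RefSeq window: the cerebellin Cbln4, the adhesion protein gene Lrrtm4 and the neurexin Nrxn3, which fell after haemorrhage, and Homer3, which rose. Each window is from RefSeq (GRCm38.p6) and runs from 250 bases before to 50 bases after an annotated start, on the gene's strand. RefSeq windows matched 24 of the 38 members. A matched window need not lie at the start of the deposited gene. Those of Nrxn3 (deposited start 88722876) and Dlg2, among others, lie inside the gene, and that of Lzts3 lies outside it. The windows are Cbln4 (chr2:172043417-172043716, minus strand), Lrrtm4 (chr6:80018627-80018926, plus), Homer3 (chr8:70282749-70283048, plus) and Nrxn3 (chr12:88794254-88794553, plus), and for Lrrtm4 and Nrxn3 the most upstream of several windows is printed. Capitals mark a match to the CRE core TGACG, here on the opposite strand.
Cbln4: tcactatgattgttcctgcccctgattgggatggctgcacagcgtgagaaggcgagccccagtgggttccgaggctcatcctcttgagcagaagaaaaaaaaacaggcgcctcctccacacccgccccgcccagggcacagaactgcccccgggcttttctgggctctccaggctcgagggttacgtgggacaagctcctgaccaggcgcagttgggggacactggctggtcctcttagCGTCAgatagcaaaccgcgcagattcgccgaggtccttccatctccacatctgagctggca
Lrrtm4: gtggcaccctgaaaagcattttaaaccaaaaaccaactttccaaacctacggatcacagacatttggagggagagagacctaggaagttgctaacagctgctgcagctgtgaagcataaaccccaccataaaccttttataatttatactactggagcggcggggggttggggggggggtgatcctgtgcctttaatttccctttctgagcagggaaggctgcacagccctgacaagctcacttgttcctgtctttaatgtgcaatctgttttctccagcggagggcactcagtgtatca
Homer3: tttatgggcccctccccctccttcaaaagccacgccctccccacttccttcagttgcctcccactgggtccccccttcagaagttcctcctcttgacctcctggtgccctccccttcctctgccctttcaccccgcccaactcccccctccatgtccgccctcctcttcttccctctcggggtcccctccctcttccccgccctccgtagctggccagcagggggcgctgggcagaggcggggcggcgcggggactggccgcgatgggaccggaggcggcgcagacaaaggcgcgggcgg
Nrxn3: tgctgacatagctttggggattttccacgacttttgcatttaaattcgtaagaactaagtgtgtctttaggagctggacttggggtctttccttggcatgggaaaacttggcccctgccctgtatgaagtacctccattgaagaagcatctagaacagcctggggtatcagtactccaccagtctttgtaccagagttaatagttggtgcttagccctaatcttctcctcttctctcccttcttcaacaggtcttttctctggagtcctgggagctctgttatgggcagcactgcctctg

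The windows were searched on both strands for motifs of activity-dependent transcription. The full CRE, TGACGTCA, was in 0 of the 24 members' windows and in 1.79% of all 32851 windows of the same length. Its core TGACG, which every full CRE also contains, was in 6 of 24 (25%) against 20.8% of all windows, and the AP-1 motif TGANTCA was in 0 of 24 against 7.81%. A match describes letters, not a bound site, and no match says only that these letters are not in this window. Base composition differed among the printed windows: G and C made up 69.7% of the Homer3 window, 60.3% of Cbln4, 48.7% of Lrrtm4 and 47.3% of Nrxn3. The median over the 24 members was 61.7%, and 52.7% over all windows.

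Libraries held 51537047 to 63324728 estimated counts. Values per library below are CPM, that is counts scaled to library size with edgeR's TMM factors, always in the order of replicates 1, 2 and 3. The log2 changes are from edgeR's quasi-likelihood test fitted on all 9 libraries, with their standard error (SE), and a gene is called where its Benjamini-Hochberg adjusted p over the 21900 genes is under 0.05. Some libraries stood apart. Mitochondrial genes took 9.14% to 10.4% of counts in sham 3, ICH 3 and ICH+P7C3-A20 2 and 14.3% to 18.5% in the others, so that each group had 1 library with the lower share. ICH+P7C3-A20 1 had the highest summed CPM of 8 cortical excitatory neuron markers (1323, against 201.6 to 574 in the other 8 libraries) and the lowest of 7 oligodendrocyte markers (4863, against 8022 to 13337), and sham 3 had the lowest of 7 thalamic markers (63.9, against 96.5 to 438). Marker sums of 2 other lists varied widely within groups. For 5 choroid plexus markers they were 28.5 to 639 CPM in sham, 33.6 to 3185 in ICH and 84.0 to 2103 in ICH+P7C3-A20. For 8 hypothalamic markers they were 2.56 to 82.8, 2.41 to 78.4 and 4.29 to 11.9 in the same order. Of the markers, Gabra6 of the cerebellar list and Pmch, Sim1 and Otp of the hypothalamic list were at 0 in at least 1 library.

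Pan-neuronal and striatal marker transcripts were lower after haemorrhage, and the members are given beside them. In ICH against sham 10.4% of all tested genes were called lower and 15.6% higher. Of 10 pan-neuronal markers (among them Rbfox3, Snap25 and Tubb3), 8 were called lower in ICH than in sham. The summed CPM of the 10 was 4822 to 5494 in sham, 3088 to 3481 in ICH and 4093 to 6496 in ICH+P7C3-A20. All 9 striatal projection neuron markers were called lower in ICH, with sums of 3726 to 6312 in sham, 2542 to 2961 in ICH and 2295 to 3350 in ICH+P7C3-A20. Other neuronal lists had fewer calls in ICH against sham: 1 of 8 cortical excitatory markers was called lower (median log2 change -0.07), 2 of 7 GABAergic interneuron markers (-0.36) and 0 of 7 thalamic markers (-0.19). Called lower too were 2 of 5 cerebellar markers (-1.31), 1 of 8 hypothalamic markers (-1.35) and 1 of 4 hippocampal markers (0.09). The cerebellar sum was low, at most 9.61 CPM in any library. Summed CPM of 6 monocyte and macrophage markers went from 20.6 to 24.6 in sham to 504 to 677 in ICH and 117 to 244 in ICH+P7C3-A20. All 6 were called higher in ICH than in sham (15.6% of all genes) and all 6 lower in ICH+P7C3-A20 than in ICH (6.05% of all). In bulk tissue, fewer neurons and less of a transcript per neuron cannot be told apart. The fit was also repeated with library factors set from the counts of the 10 pan-neuronal markers, and values from it are called per pan-neuronal transcripts. These markers hold no member but include the presynaptic genes Snap25, Syt1 and Syn1. A loss shared by synaptic transcripts is thus partly divided out, and this scaling cannot separate fewer neurons from less transcript per neuron either. This scaling moved the median of all tested genes to 0.66 (log2) in ICH against sham, -0.55 in ICH+P7C3-A20 against ICH and 0.14 in ICH+P7C3-A20 against sham, from 0.00, -0.01 and 0.03. It shifts all genes of a comparison nearly alike, so a member's sign under it follows from whether its TMM value was larger or smaller than that shift.

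**Figure D1:**
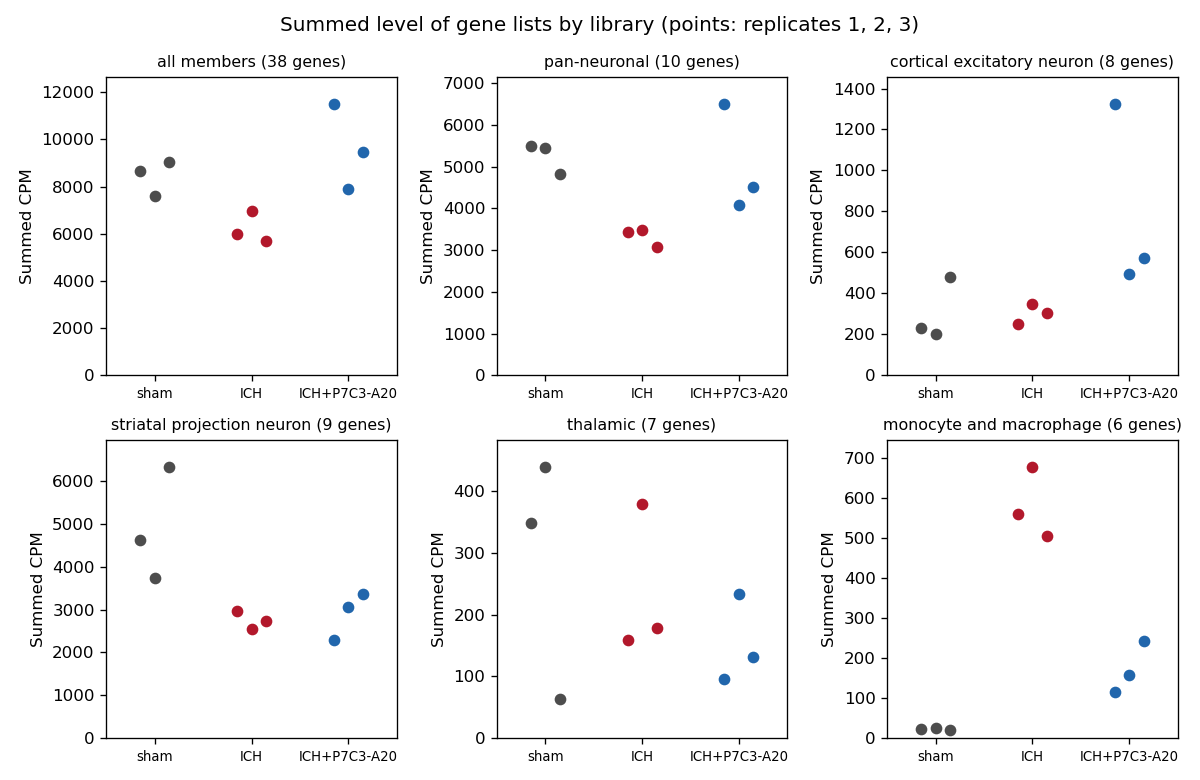
Summed CPM (vertical axes, starting at 0) of the 38 members and of 5 marker lists in each library, by group (horizontal axes, replicates 1, 2 and 3 from left to right). The members' sum was 7617 to 9023 in sham, 5683 to 6942 in ICH and 7888 to 11484 in ICH+P7C3-A20, and the pan-neuronal sum was also lowest in the 3 ICH libraries.

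Of the members, 22 of 38 were called lower in ICH than in sham (10.4% of all tested genes were), 1 was called higher (15.6% of all), and 15 were not called. Their median log2 change was -0.55, beside 0.00 for all tested genes, and turned to 0.09 per pan-neuronal transcripts (0.66 for all tested genes), and 37 of the 38 values were negative. In 25 members every ICH library lay below every sham library (18.8% of all genes), and in 1 every ICH library lay above (23.3% of all). In ICH+P7C3-A20 against ICH, 15 members were called higher (2.69% of all genes), 1 lower (6.05% of all) and 22 not, with a median of 0.53 beside -0.01 for all genes. Groups did not overlap in 30 members that were higher (15.1% of all genes) and 1 that was lower (18.5% of all). Against sham, ICH+P7C3-A20 had 0 members called higher (4.58% of all genes) and 1 called lower (0.744% of all), with a median of -0.10 beside 0.03. By edgeR's unadjusted p under 0.05, 5 members were higher (12% of all genes) and 5 lower (6.16% of all) in this comparison, and DESeq2 called 1 higher (7.12% of all) and 2 lower (2.52% of all). Per pan-neuronal transcripts, a scaling that shifts all genes nearly alike, the members' medians became 0.09, -0.04 and 0.00. Those of all tested genes became 0.66, -0.55 and 0.14. As with TMM scaling, the members' median lay below that of all genes in ICH against sham and above it in ICH+P7C3-A20 against ICH. In this fit ICH against sham had 4 members called higher (37.4% of all genes were) and 0 lower (0.237% of all). ICH+P7C3-A20 against ICH had 2 higher (0.146% of all) and 1 lower (21.8% of all), and ICH+P7C3-A20 against sham had 1 higher (3.23% of all) and 0 lower (0.00457% of all). By the unadjusted p of that edgeR fit, 8 members were higher (47.4% of all) and 1 lower (0.534% of all) in ICH against sham.

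**Figure D2:**
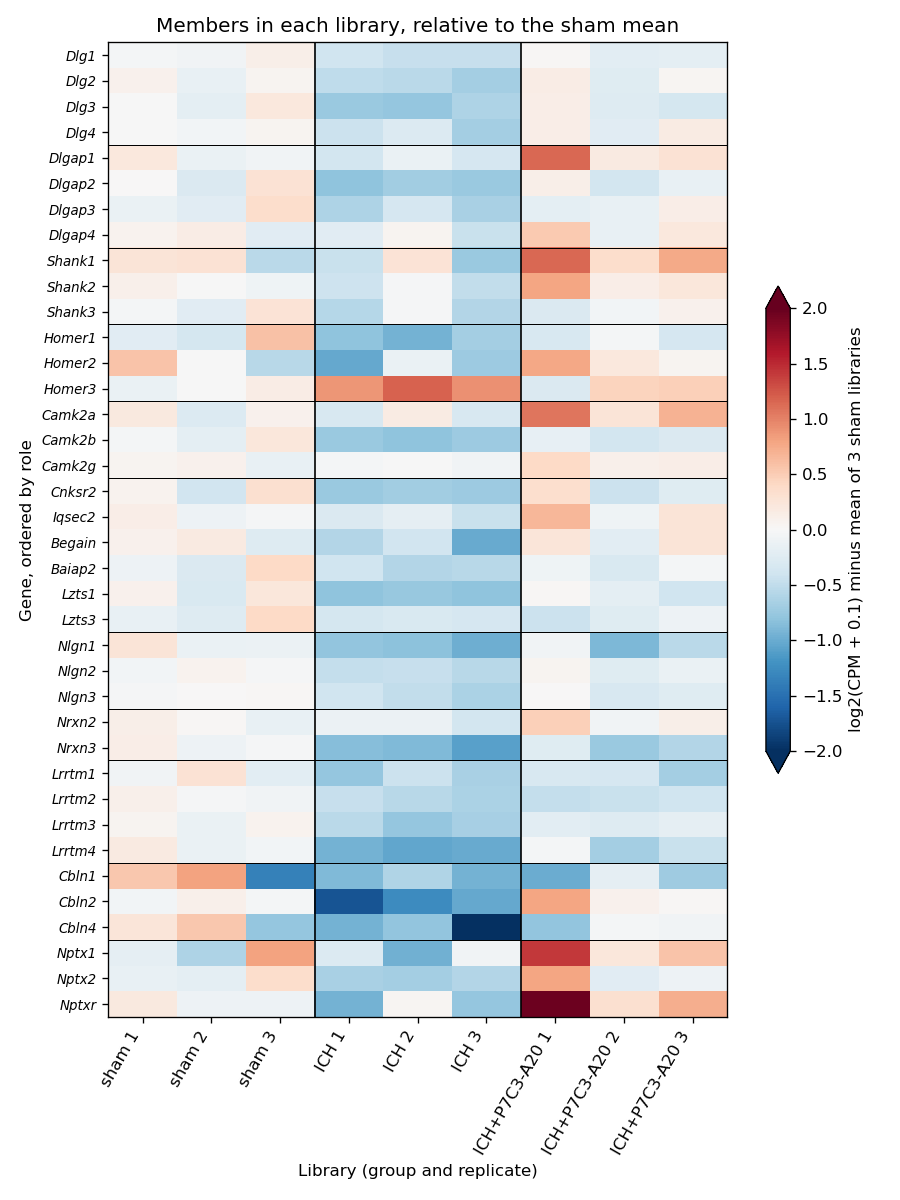
Each row is a member, grouped by role, and each column a library; colour is log2(CPM + 0.1) minus the mean of the 3 sham libraries (blue lower, red higher, saturating at 2). Members' medians lay at -0.56, -0.48 and -0.65 in the 3 ICH libraries and between -0.20 and 0.08 in the 3 ICH+P7C3-A20 libraries; per pan-neuronal transcripts the median fitted change in ICH against sham is 0.09.

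**Figure D3:**
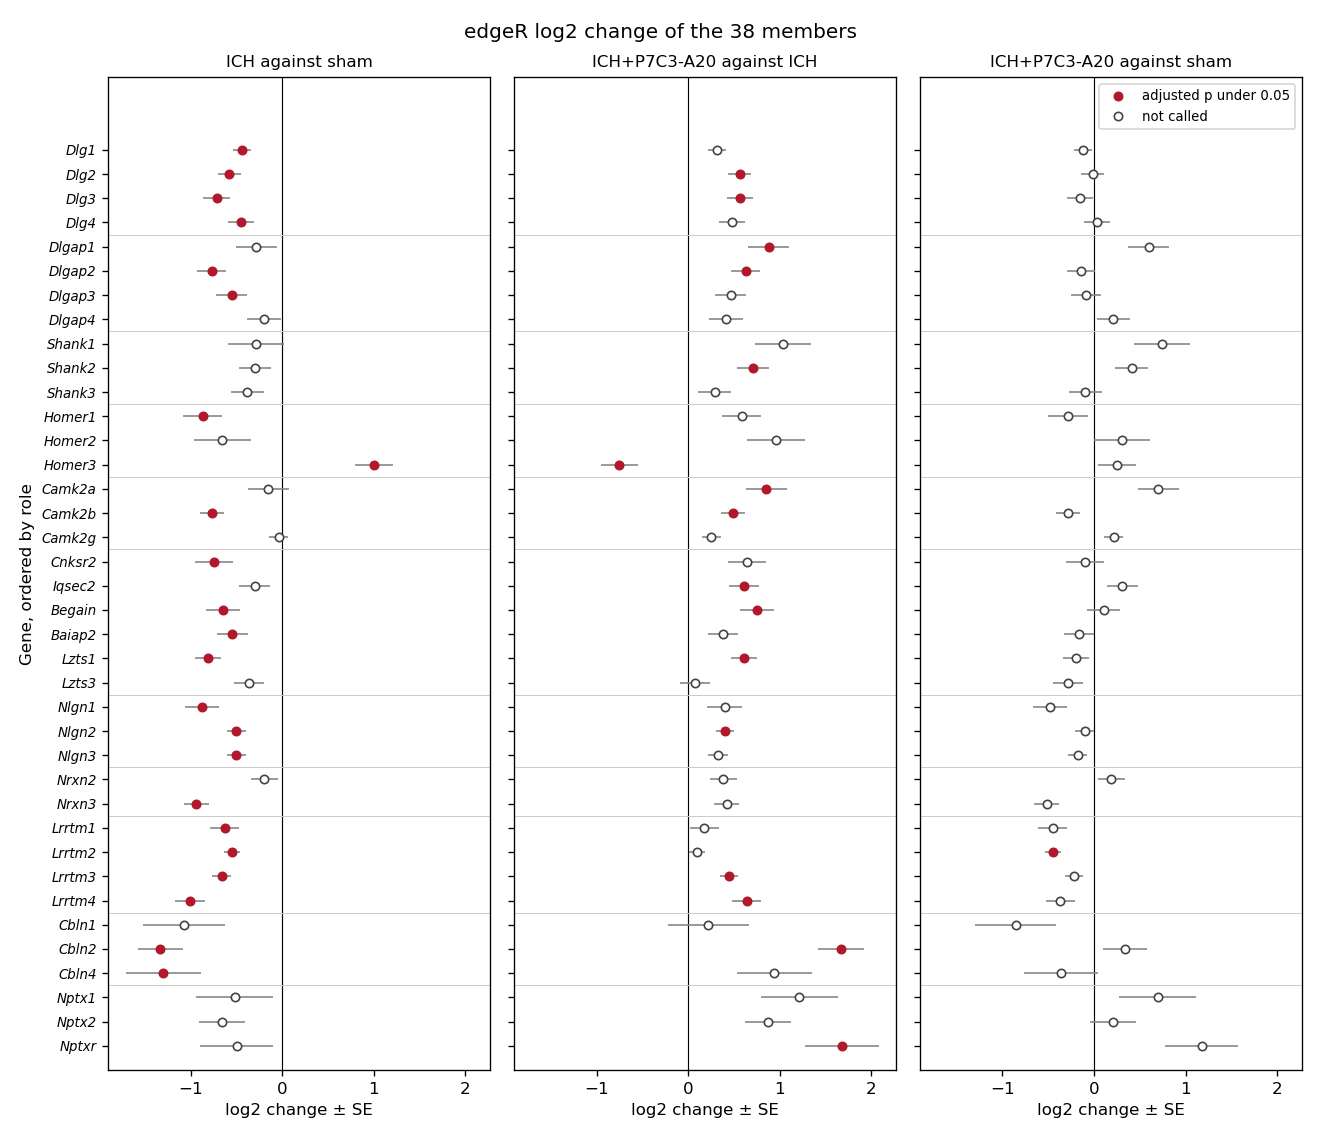
Points are edgeR log2 changes of the members (horizontal axes) with SE bars, in 3 panels for the 3 comparisons; filled points have an adjusted p under 0.05. Of the 38 points, 37 are below 0 in ICH against sham and 37 above 0 in ICH+P7C3-A20 against ICH, with Homer3 the exception in both; per pan-neuronal transcripts the medians of these panels are 0.09 and -0.04.

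The MAGUK scaffolds were all called lower after haemorrhage, 4 of 4 (10.4% of all tested genes were). Per pan-neuronal transcripts none was called (0.237% of all genes were called lower and 37.4% higher), and 3 of the 4 values turned positive. Dlg4, which encodes PSD-95, the main scaffold under AMPA and NMDA receptors, measured 772, 746 and 807 CPM in the sham libraries, 576, 638 and 485 in the ICH libraries and 847, 663 and 864 in the ICH+P7C3-A20 libraries. Every ICH library lay below every sham and every ICH+P7C3-A20 library, and the sham and ICH+P7C3-A20 libraries overlapped. Its log2 change was -0.45 ± 0.14 (SE) in ICH against sham (adjusted p = 0.0394) and 0.48 ± 0.14 in ICH+P7C3-A20 against ICH, which was not called (adjusted p = 0.0621). Dlg2, encoding PSD-93, measured 476, 407 and 469 CPM in the sham libraries, 315, 309.5 and 281 in the ICH libraries and 497, 379.7 and 463 in the ICH+P7C3-A20 libraries. ICH was again the lowest group with no overlap, and Dlg2 fell by 1.49-fold in ICH (log2 change -0.58 ± 0.13, adjusted p = 0.00675) and rose by a log2 change of 0.56 ± 0.13 with the compound (adjusted p = 0.0227). Dlg3, encoding SAP102, an NMDA receptor scaffold prominent in young synapses, measured 134, 118 and 157 CPM in the sham libraries, 81.1, 79.4 and 87.9 in the ICH libraries and 149, 113 and 106 in the ICH+P7C3-A20 libraries. Its log2 changes were -0.72 ± 0.14 (adjusted p = 0.00446) and 0.56 ± 0.14 (adjusted p = 0.0378). Dlg1, encoding SAP97, which traffics AMPA receptors, measured 151, 147 and 169 CPM in the sham libraries, 118, 113 and 114 in the ICH libraries and 159, 135 and 136 in the ICH+P7C3-A20 libraries. It fell by 1.36-fold (log2 change -0.44 ± 0.10, adjusted p = 0.00808), and its value against ICH under the compound, 0.32 ± 0.10, was not called (adjusted p = 0.0732). The call of Dlg4 in ICH against sham was lost without sham 1, sham 2, sham 3, ICH 1 or ICH 3, with adjusted p = 0.063 to 0.157. Per pan-neuronal transcripts the 4 MAGUK values in ICH against sham ran from -0.07 to 0.21, positive for Dlg1, Dlg2 and Dlg4, and those in ICH+P7C3-A20 against ICH from -0.24 to 0.00, with none called.

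Of the SAPAP scaffolds, which connect PSD-95 to SHANK, 2 of 4 were called lower after haemorrhage (10.4% of all tested genes were). Of these, Dlgap3 turned positive per pan-neuronal transcripts. Dlgap2 measured 55.3, 45.3 and 67.3 CPM in the sham libraries, 31.5, 34.2 and 32.9 in the ICH libraries and 59.6, 42.8 and 49.9 in the ICH+P7C3-A20 libraries. The ICH libraries lay below all others, and the log2 change was -0.77 ± 0.16 in ICH against sham (adjusted p = 0.00477) and 0.63 ± 0.16 in ICH+P7C3-A20 against ICH (adjusted p = 0.0347). Dlgap3, the SAPAP most prominent in striatum, measured 344, 322 and 480.2 CPM in the sham libraries, 244, 297 and 239.6 in the ICH libraries and 327, 337 and 414 in the ICH+P7C3-A20 libraries. It was high in sham 3, the library in which the striatal marker sum was also highest (6312), and its log2 change in ICH was -0.55 ± 0.17 (adjusted p = 0.0344). Without sham 3 that value was -0.35, and the call was lost without sham 3, ICH 1 or ICH 3 (adjusted p = 0.093 to 0.122); the part of striatal content in it was not tested. Dlgap1 measured 161, 127 and 133 CPM in the sham libraries, 109, 127 and 111 in the ICH libraries and 309, 158 and 171 in the ICH+P7C3-A20 libraries. It did not separate ICH from sham (log2 change -0.28 ± 0.22, adjusted p = 0.413) but rose in ICH+P7C3-A20 against ICH (log2 change 0.88 ± 0.22, adjusted p = 0.0378). ICH+P7C3-A20 1 was far above the other 2 of its group, and without it the value was 0.51 and not called (adjusted p = 0.0594). Dlgap4 was not called in any comparison under the TMM scaling, with CPM of 152 to 298. Per pan-neuronal transcripts the direction of Dlgap3 in ICH against sham turned to 0.08, and Dlgap4 was called higher there (0.45, adjusted p = 0.0456).

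None of the 3 SHANK genes, which encode the deep scaffold under the MAGUK and SAPAP layers, was called in ICH against sham. Shank2 measured 126, 118 and 111 CPM in the sham libraries, 88.8, 116 and 84.2 in the ICH libraries and 204, 130.2 and 139 in the ICH+P7C3-A20 libraries. ICH 2 reached into the sham range, the groups overlapped, and the log2 change of -0.30 ± 0.18 was not called (adjusted p = 0.26). All ICH+P7C3-A20 libraries lay above all ICH libraries, and Shank2 rose by 1.64-fold in that comparison (log2 change 0.71 ± 0.18, adjusted p = 0.035). Without ICH+P7C3-A20 1 the value was 0.48 and was not called (adjusted p = 0.0995). Shank1, with CPM of 153 to 573, had a larger but more variable value against ICH, 1.03 ± 0.31 (adjusted p = 0.0644), and Shank3, with CPM of 213 to 386, had 0.29 ± 0.18 (adjusted p = 0.378). In ICH against sham the 3 genes had log2 changes of -0.38 to -0.29, and per pan-neuronal transcripts these turned to 0.25 to 0.37, with none called. At an unadjusted p under 0.05 edgeR had 0 of the 3 lower with TMM scaling, and DESeq2 called 0.

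Of the HOMER genes, Homer1 fell and Homer3 rose after haemorrhage, and per pan-neuronal transcripts Homer1 kept its direction at -0.24 without a call (adjusted p = 0.549). Homer1, whose long forms cross-link SHANK and metabotropic receptors and whose short activity-induced form breaks those links, measured 129.7, 119 and 227 CPM in the sham libraries, 86.9, 78.6 and 95.05 in the ICH libraries and 122, 148 and 121 in the ICH+P7C3-A20 libraries. Sham 3 was high and all ICH libraries lay below all others. The log2 change in ICH was -0.87 ± 0.22 (adjusted p = 0.0134); it was -0.52 without sham 3 and still called, and without ICH 2 the call was lost (adjusted p = 0.0598). Gene-level counts do not separate the long and short forms. Against ICH, ICH+P7C3-A20 had 0.58 ± 0.22, not called (adjusted p = 0.122). Homer2 ranged from 16.3 to 56.3 CPM and was not called in any comparison.

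Homer3 rose, the only member to do so in ICH against sham. The gene, at chr8:70282827-70294361 (plus strand), encodes a long HOMER form known from Purkinje cell spines, and it measured 8.86, 9.69 and 10.9 CPM in the sham libraries, 18.1, 22.4 and 18.5 in the ICH libraries and 7.98, 13.3 and 13.7 in the ICH+P7C3-A20 libraries. The ICH mean was 2.003-fold that of sham in the fit, and all 3 ICH libraries lay above all other libraries, while ICH+P7C3-A20 libraries overlapped sham. The log2 change was 1.002 ± 0.21 in ICH against sham (adjusted p = 0.00485), called whichever single library was left out, and -0.75 ± 0.20 in ICH+P7C3-A20 against ICH (adjusted p = 0.0465). The second call was lost when any library other than sham 3 or ICH+P7C3-A20 2 was left out (adjusted p = 0.0539 to 0.165). Scaled to pan-neuronal transcripts, the values were 1.65 (adjusted p = 0.00124) and -1.24 (adjusted p = 0.0168); that scaling shifts all genes in the direction Homer3 already had in both comparisons, so its unchanged sign adds nothing. In ICH against sham all 6 monocyte and macrophage, 5 of 5 microglial, 4 of 5 endothelial and 4 of 6 astrocyte markers were called higher (15.6% of all genes were). Of the 6 astrocyte values 2 were negative. The oligodendrocyte list had 1 of 7 called higher and the choroid plexus list 0 of 5, with all values positive. The part of these lists in the Homer3 value was not tested. The cerebellar markers summed to at most 9.61 CPM in any library. In ICH against sham all 5 of their values were negative and 2 were called lower (10.4% of all genes were). In ICH+P7C3-A20 against ICH all 5 were positive and 0 were called. Their part in the Homer3 value was not tested either. Homer3 shares 25.4% of its exon bases with Ddx49 on the opposite strand, whose log2 changes were 0.18 and -0.07 in the same comparisons with no call; whether the counting used strand is not given in the sources used here.

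**Figure D4:**
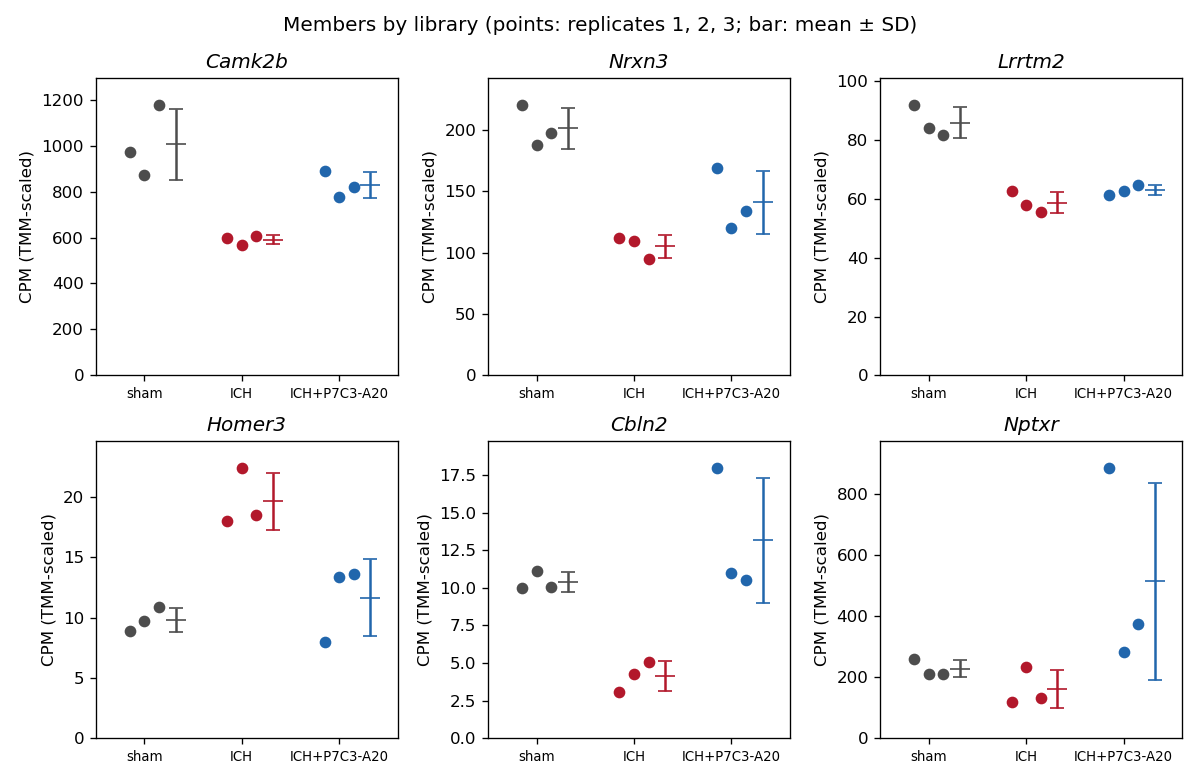
CPM (vertical axes, starting at 0) of 6 members in each library, with replicates 1, 2 and 3 from left to right and the mean ± SD of each group beside them (n = 3). Camk2b, Nrxn3, Lrrtm2 and Cbln2 were lower in every ICH library than in every sham library, Homer3 was higher in every ICH library, and Nptxr was highest in ICH+P7C3-A20 1; per pan-neuronal transcripts the log2 change of Lrrtm2 in ICH against sham is 0.11.

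Of the CaMKII subunits, Camk2b was the one called lower after haemorrhage. Camk2b, the beta subunit, which anchors the holoenzyme to actin, measured 973, 872 and 1175 CPM in the sham libraries, 597, 569 and 605 in the ICH libraries and 889, 777 and 822 in the ICH+P7C3-A20 libraries. Every ICH library lay below every other library, and the gene fell by 1.705-fold (log2 change -0.77 ± 0.13, adjusted p = 0.00178), a call kept whichever single library was left out. Camk2b rose by a log2 change of 0.49 ± 0.13 in ICH+P7C3-A20 against ICH (adjusted p = 0.045), a call lost in 7 of 9 omissions (adjusted p = 0.0514 to 0.143). Camk2a, the alpha subunit, enriched in forebrain excitatory neurons, measured 1734, 1249.7 and 1597 CPM in the sham libraries, 1217, 1697 and 1208 in the ICH libraries and 3187, 1818 and 2445 in the ICH+P7C3-A20 libraries. It did not separate ICH from sham, where the log2 change was -0.15 ± 0.23 (adjusted p = 0.69). All ICH+P7C3-A20 libraries were above all ICH and all sham libraries, and the value was 0.85 ± 0.23 against ICH (adjusted p = 0.0435) and 0.70 ± 0.23 against sham, which was not called (adjusted p = 0.119). The cortical marker sum was likewise 493 to 1323 in ICH+P7C3-A20 and 251 to 348 in ICH, highest in the same library as Camk2a; its part in the Camk2a value was not tested. Without ICH+P7C3-A20 1 the Camk2a value against ICH was 0.63 and was not called (adjusted p = 0.148). Camk2g, the gamma subunit, ranged only from 108 to 157 CPM and was not called under TMM scaling; per pan-neuronal transcripts it was called higher in ICH against sham (0.62, adjusted p = 0.0088), Camk2b stayed below 0 (-0.12) without a call, and the direction of Camk2b against ICH turned to -0.07.

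Among the 6 other proteins of the postsynaptic density, 4 were called lower after haemorrhage (10.4% of all tested genes were). In ICH+P7C3-A20 against ICH 3 were called higher (2.69% of all). Per pan-neuronal transcripts none was called, and Begain and Baiap2 turned positive after haemorrhage. There 0.237% of all genes were called lower and 37.4% higher in ICH against sham. Lzts1, a PSD-Zip family scaffold, measured 83.7, 64.4 and 92.5 CPM in the sham libraries, 45.2, 46.9 and 45.2 in the ICH libraries and 80.2, 68.9 and 60.5 in the ICH+P7C3-A20 libraries. The ICH libraries lay within 2 CPM of each other, below all others, and the log2 change was -0.81 ± 0.14 in ICH (adjusted p = 0.00206), called whichever single library was left out. Against ICH with the compound it was 0.61 ± 0.14 (adjusted p = 0.0269), a call lost in 4 of 9 omissions (adjusted p = 0.0828 to 0.0989). Begain, a PSD-95-binding protein, measured 137, 145 and 108 CPM in the sham libraries, 85.5, 99.3 and 64.3 in the ICH libraries and 153, 111 and 154 in the ICH+P7C3-A20 libraries. Its log2 changes were -0.65 ± 0.18 (adjusted p = 0.0255) and 0.75 ± 0.18 (adjusted p = 0.0331), and the first call was lost without sham 1, sham 2, ICH 1 or ICH 3 (adjusted p = 0.0664 to 0.0935). The second was lost in 5 of 9 omissions of a single library (adjusted p = 0.0502 to 0.115). Cnksr2, a scaffold linking PSD-95 to Ras signalling, measured 143, 103 and 168 CPM in the sham libraries, 80.6, 83.9 and 82.3 in the ICH libraries and 171, 100.3 and 115 in the ICH+P7C3-A20 libraries. It fell in ICH (log2 change -0.75 ± 0.21, adjusted p = 0.0228), a call lost without sham 1, sham 3 or any ICH library (adjusted p = 0.0668 to 0.0733), and its value of 0.65 ± 0.21 with the compound was not called (adjusted p = 0.0813). Baiap2, encoding IRSp53, which shapes spine actin, measured 289.6, 252 and 406 CPM in the sham libraries, 234, 205 and 210.4 in the ICH libraries and 293, 250.5 and 302 in the ICH+P7C3-A20 libraries. It was high in sham 3, and its log2 change in ICH, -0.55 ± 0.17 (adjusted p = 0.0336), was -0.32 without that library (adjusted p = 0.0788); the call was lost as well without sham 1 or any ICH library (adjusted p = 0.0537 to 0.116). Iqsec2, an Arf exchange factor that regulates AMPA receptors, measured 154, 131 and 139 CPM in the sham libraries, 115, 125 and 104 in the ICH libraries and 224, 133 and 168 in the ICH+P7C3-A20 libraries. It was not called in ICH against sham (log2 change -0.30 ± 0.17, adjusted p = 0.228), although all ICH libraries lay below all sham libraries, and it rose by a log2 change of 0.61 ± 0.17 against ICH with the compound (adjusted p = 0.0494), or 0.39 without a call when ICH+P7C3-A20 1 was left out (adjusted p = 0.15). Lzts3, another PSD-Zip member, ranged from 246 to 440 CPM and was not called. Per pan-neuronal transcripts the 6 values in ICH against sham ran from -0.16 to 0.35 with none called.

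All 3 neuroligins were called lower after haemorrhage (10.4% of all tested genes were). Per pan-neuronal transcripts none was called (0.237% of all genes were called lower and 37.4% higher), and Nlgn2 and Nlgn3 turned positive. Nlgn1, the neuroligin of excitatory synapses, measured 82.1, 63.04 and 63.5 CPM in the sham libraries, 39.8, 39.00 and 34.9 in the ICH libraries and 65.4, 36.9 and 47.5 in the ICH+P7C3-A20 libraries. It fell by 1.83-fold (log2 change -0.88 ± 0.19, adjusted p = 0.00654), and ICH+P7C3-A20 2 stayed within the ICH range; the value against ICH, 0.40 ± 0.19, was not called (adjusted p = 0.23). Nlgn2, the neuroligin of inhibitory synapses, measured 214, 234 and 219.7 CPM in the sham libraries, 159, 161 and 152 in the ICH libraries and 231, 187 and 204 in the ICH+P7C3-A20 libraries. The replicates were close, all ICH libraries lay below all others, and the log2 changes were -0.50 ± 0.10 (adjusted p = 0.00451) and 0.40 ± 0.10 (adjusted p = 0.0365). Nlgn3, present at both kinds of synapse, measured 112, 114 and 115 CPM in the sham libraries, 86.2, 80.5 and 73.4 in the ICH libraries and 114, 91.02 and 96.1 in the ICH+P7C3-A20 libraries. Its log2 change in ICH was -0.50 ± 0.11 (adjusted p = 0.00551), and its value against ICH with the compound, 0.33 ± 0.11, was not called (adjusted p = 0.0822). All 3 calls in ICH against sham held whichever single library was left out. The call of Nlgn2 in ICH+P7C3-A20 against ICH was lost in 6 of 9 omissions (adjusted p = 0.0547 to 0.139). Nlgn3 is uncertain in 1 respect: it shares 41.2% of its exon bases with Gm21986 on the same strand, which was counted at 0.573 to 7.04 CPM. Per pan-neuronal transcripts the values in ICH against sham were -0.22, 0.15 and 0.15 in that order.

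Nrxn3 had the smallest adjusted p of the 38 members in ICH against sham. This presynaptic neurexin, at chr12:88722876-90333443 (plus strand), measured 219.9, 187 and 197 CPM in the sham libraries, 112, 109 and 94.5 in the ICH libraries and 169, 119.8 and 134 in the ICH+P7C3-A20 libraries. Every ICH library was below every other library, and every ICH+P7C3-A20 library was below every sham library. Nrxn3 fell by 1.92-fold in ICH (log2 change -0.94 ± 0.14, adjusted p = 0.000636). With the compound its value was 0.42 ± 0.14 against ICH (adjusted p = 0.08) and -0.52 ± 0.14 against sham (adjusted p = 0.0554), neither called. Nrxn2 ranged from 175 to 313 CPM with no call under TMM scaling. Per pan-neuronal transcripts Nrxn3 kept its direction at -0.29 without a call (adjusted p = 0.165), and Nrxn2 was called higher in ICH (0.46, adjusted p = 0.0316). Gene-level counts do not separate alpha from beta neurexin transcripts.

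The LRRTM genes encode leucine-rich-repeat proteins that bind neurexins and stabilize AMPA receptors. They were all called lower after haemorrhage, 4 of 4 (10.4% of all tested genes were). Per pan-neuronal transcripts none was called (0.237% of all genes were called lower and 37.4% higher), and Lrrtm1 and Lrrtm2 turned positive. Lrrtm4, at chr6:80018877-80810143 (plus strand), measured 36.9, 29.8 and 31.3 CPM in the sham libraries, 16.8, 15.7 and 16.2 in the ICH libraries and 31.6, 20.3 and 23.9 in the ICH+P7C3-A20 libraries. It fell by 2.01-fold in ICH (log2 change -1.01 ± 0.16, adjusted p = 0.00115) and rose by a log2 change of 0.64 ± 0.16 in ICH+P7C3-A20 against ICH (adjusted p = 0.0353). Lrrtm3 measured 54.2, 47.2 and 54.8 CPM in the sham libraries, 35.6, 30.3 and 32.7 in the ICH libraries and 44.9, 43.5 and 45.9 in the ICH+P7C3-A20 libraries. The 3 groups did not overlap at all: ICH was lowest, sham highest and ICH+P7C3-A20 between, with log2 changes of -0.66 ± 0.10 (adjusted p = 0.000845), 0.45 ± 0.10 (adjusted p = 0.0239) and, against sham, -0.22 ± 0.10, not called (adjusted p = 0.283). Lrrtm2 measured 91.8, 83.99 and 81.8 CPM in the sham libraries, 62.6, 58.04 and 55.6 in the ICH libraries and 61.4, 62.6 and 64.8 in the ICH+P7C3-A20 libraries. Its ICH+P7C3-A20 libraries overlapped ICH and lay below all sham libraries. Lrrtm2 fell in ICH (log2 change -0.55 ± 0.09, adjusted p = 0.00122), had 0.10 ± 0.09 against ICH with the compound (adjusted p = 0.552), and was the member called lower in ICH+P7C3-A20 than in sham (log2 change -0.45 ± 0.09, adjusted p = 0.0153). That last call was lost without sham 1, ICH+P7C3-A20 2 or ICH+P7C3-A20 3 (adjusted p = 0.0515 to 0.0697), and per pan-neuronal transcripts (-0.33, adjusted p = 0.605). Lrrtm1 measured 48.9, 63.3 and 44.4 CPM in the sham libraries, 30.2, 38.5 and 32.8 in the ICH libraries and 41.5, 41.04 and 32.1 in the ICH+P7C3-A20 libraries. It fell in ICH (log2 change -0.63 ± 0.16, adjusted p = 0.0145), a call lost without sham 2, ICH 1 or ICH 3 (adjusted p = 0.0524 to 0.0646), and had 0.18 ± 0.16 against ICH with the compound (adjusted p = 0.561). Per pan-neuronal transcripts the 4 values in ICH against sham ran from -0.35 to 0.11. Lrrtm4 shares 25.1% of its exon bases with the antisense gene Gm4409, which was counted at no more than 0.644 CPM.

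The cerebellins, secreted proteins that bridge neurexins to glutamate delta receptors, included the 2 members with the largest called falls after haemorrhage, Cbln2 and Cbln4. Cbln2 measured 9.96, 11.1 and 10.04 CPM in the sham libraries, 3.05, 4.27 and 5.05 in the ICH libraries and 17.9, 10.97 and 10.5 in the ICH+P7C3-A20 libraries. The ICH libraries held less than any other library, and ICH+P7C3-A20 overlapped sham with library 1 above. Cbln2 fell by 2.51-fold in ICH (log2 change -1.33 ± 0.25, adjusted p = 0.00292) and rose by 3.19-fold in ICH+P7C3-A20 against ICH (log2 change 1.67 ± 0.25, adjusted p = 0.00684). Both calls held whichever single library was left out, with values of -1.502 to -1.15 and 1.38 to 1.84. Per pan-neuronal transcripts Cbln2 kept its direction in both, at -0.66 without a call (adjusted p = 0.0669) and 1.05 with a call (adjusted p = 0.0178). Cbln4, at chr2:172036233-172043466 (minus strand), measured 9.04, 11.1 and 4.38 CPM in the sham libraries, 3.88, 4.34 and 1.71 in the ICH libraries and 4.37, 7.41 and 7.22 in the ICH+P7C3-A20 libraries. Sham 3 was within 0.1 CPM of ICH 2, and the log2 change of -1.30 ± 0.41 in ICH was called narrowly (adjusted p = 0.0396); leaving out sham 1, sham 2, any ICH library or ICH+P7C3-A20 3 ended the call (adjusted p = 0.0529 to 0.134). Cbln1, with CPM of 6.95 to 31.5, was not called in any comparison. Sham 3 was the lowest sham library in Cbln1 and Cbln4 and in the thalamic marker sum (63.9, against 348 and 438 in sham 1 and sham 2); its part in these values was not tested.

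The neuronal pentraxins, which cluster AMPA receptors from outside the cell, were not called by edgeR in ICH against sham, where 1 of 3 was lower at an unadjusted p under 0.05 and DESeq2 called 1 lower. Nptxr, at chr15:79786351-79804766 (minus strand), encodes the membrane-anchored receptor form that joins secreted pentraxins, and measured 259, 211 and 212 CPM in the sham libraries, 117, 233 and 133 in the ICH libraries and 884, 284 and 376 in the ICH+P7C3-A20 libraries. ICH 2 was within the sham range, and the log2 change in ICH was -0.50 ± 0.39 (adjusted p = 0.417). All ICH+P7C3-A20 libraries were above all ICH and all sham libraries, with library 1 far above the rest, and Nptxr rose by 3.198-fold against ICH (log2 change 1.68 ± 0.40, adjusted p = 0.0334). Without ICH+P7C3-A20 1 the value was 1.04 and was not called (adjusted p = 0.0717). Against sham the value was 1.18 ± 0.40, not called (adjusted p = 0.144), and 0.54 without that library (adjusted p = 0.333). Per pan-neuronal transcripts Nptxr was called higher in ICH+P7C3-A20 against both ICH (1.003, adjusted p = 0.0209) and sham (1.15, adjusted p = 0.0301). Nptx1, with CPM of 37.1 to 193, and Nptx2, with CPM of 12.7 to 35.3, had values of 1.21 ± 0.42 and 0.87 ± 0.25 against ICH, without a call (adjusted p = 0.115 and 0.0592). All 3 pentraxins were highest in ICH+P7C3-A20 1, the library highest in the cortical marker sum, whose part in these values was not tested. Nptxr shares 17.2% of its exon bases with Npcd on the same strand, which was counted at no more than 0.162 CPM. In ICH against sham the 3 values lay between -0.66 and -0.50, and per pan-neuronal transcripts between -0.02 and 0.15.

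**Figure D5:**
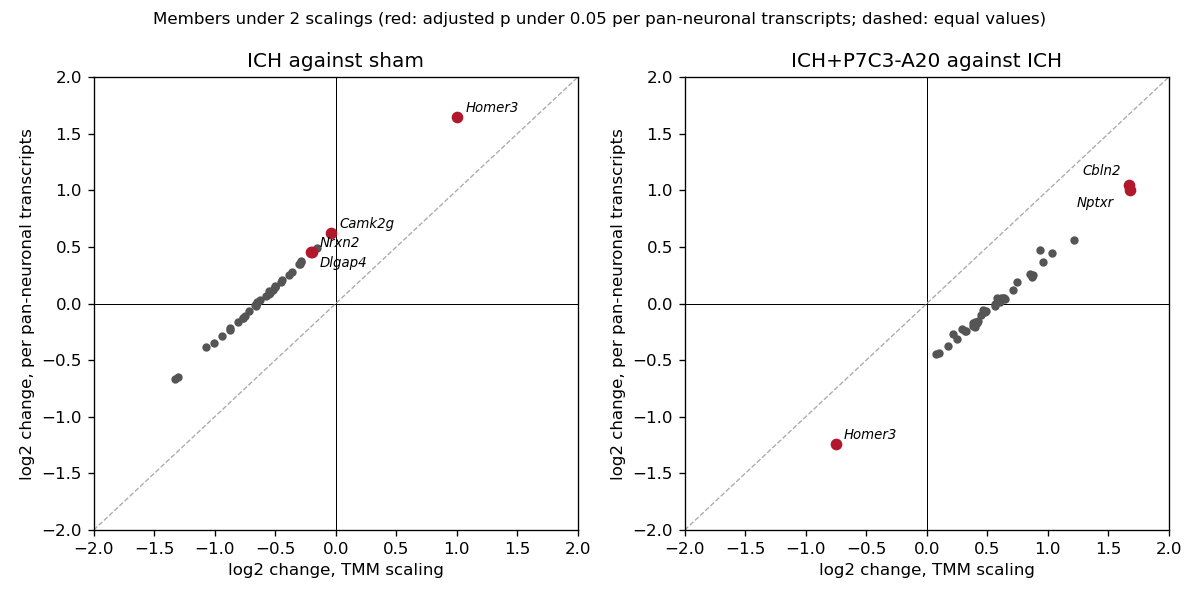
Each point is a member's log2 change with TMM scaling (horizontal axes) against its log2 change per pan-neuronal transcripts (vertical axes), for ICH against sham and ICH+P7C3-A20 against ICH; red points have an adjusted p under 0.05 on the vertical scale. The points lie near a line shifted from equality by the change of scale, and the members' medians move from -0.55 to 0.09 and from 0.53 to -0.04.

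Leaving out single libraries ended more of the calls made with the compound than of those after haemorrhage alone. Of the 23 members called in ICH against sham, 15 were called whichever single library was left out, and all 23 kept their sign. Of the 16 called in ICH+P7C3-A20 against ICH, all 16 kept their sign and 1, Cbln2, kept its call throughout. Of these 16, the number still called was 7, 13 and 15 without sham 1, 2 and 3, 1, 3 and 1 without ICH 1, 2 and 3, and 1, 15 and 6 without ICH+P7C3-A20 1, 2 and 3, and the lost calls had adjusted p = 0.0502 to 0.172. Shares of all genes called were not counted in these fits. A loss of member calls thus cannot be told apart from a loss of calls over all genes. The spread among replicates was widest in ICH+P7C3-A20: the median coefficient of variation of a member's CPM was 18.3% there, 14.7% in sham and 9.04% in ICH. With a term for the lower mitochondrial share in the fit, which was added after the values were seen, ICH+P7C3-A20 against ICH had 23 members called higher (5.6% of all genes), and in the 6 libraries with the higher share it had 7 (1.49% of all).

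In ICH+P7C3-A20 against sham 1 of 38 members was called, Lrrtm2. In 11 of 38 the log2 change was smaller than its SE, and the range was -0.86 (Cbln1) to 1.18 (Nptxr). The groups did not overlap in 5 members that were higher with the compound, Shank1, Shank2, Camk2a, Camk2g and Nptxr (12.6% of all tested genes did so), and in 4 that were lower, Nrxn3, Lrrtm1, Lrrtm2 and Lrrtm3 (7.84% of all). All 4 LRRTM genes had negative values against sham, from -0.45 to -0.22, and from -0.34 to -0.11 per pan-neuronal transcripts.

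Per transcript length, on the deposited FPKM scale, the alpha subunit of CaMKII had the highest mean of the members. In sham, Camk2a had 170.4 ± 32.6 FPKM (SD, n = 3) and Camk2b 92.5 ± 21.7, followed by Dlgap3 (71.1 ± 22.2), Lzts3 (67.3 ± 23.3), Baiap2 (53.3 ± 18.1) and Dlg4 (48.7 ± 5.82); after Camk2a, the ranges of mean ± SD of neighbours in this order overlap. The lowest levels in sham were those of Homer2 (2.24 ± 0.751), Cbln4 (2.29 ± 0.841) and Homer3 (2.37 ± 0.438), which do not differ beyond their spread. In ICH, Homer3 at 4.88 ± 0.384 FPKM was above Homer2 at 1.49 ± 0.411. Among MAGUKs, Dlg4 was above Dlg2 (21.01 ± 2.85), Dlg3 (19.5 ± 4.35) and Dlg1 (12.1 ± 1.905) in sham, and among neuroligins Nlgn2 (31.98 ± 2.66) was above Nlgn3 (10.2 ± 0.938) and Nlgn1 (4.29 ± 0.540).

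Other genes of the same structures are given for comparison from lists of 29 postsynaptic density genes and 40 adhesion and organizer genes, all tested. In ICH against sham 13 of 29 and 23 of 40 were called lower (10.4% of all tested genes were) and 0 higher (15.6% of all). Their medians were -0.47 and -0.52, beside 0.00 for all tested genes. Per pan-neuronal transcripts these turned to 0.19 and 0.13, beside 0.66. At edgeR's unadjusted p under 0.05, 47 of the 69 were lower (16.4% of all genes) and 0 higher (20.2% of all), and DESeq2 called 44 lower (13.9% of all) and 0 higher (17.3% of all). The smallest p in the first list was that of Gphn, the inhibitory scaffold gephyrin, at 79.2, 71.8 and 76.0 CPM in the sham libraries, 52.5, 53.2 and 52.6 in the ICH libraries and 59.2, 58.5 and 65.3 in the ICH+P7C3-A20 libraries (log2 change -0.52 ± 0.09, adjusted p = 0.0014). In the second it was Grid1, the delta receptor to which cerebellins bind, at 67.6, 66.0 and 65.5 CPM in the sham libraries, 38.8, 45.0 and 40.9 in the ICH libraries and 50.5, 44.3 and 49.6 in the ICH+P7C3-A20 libraries (log2 change -0.68 ± 0.09, adjusted p = 0.000502). Grid1 was also the gene among the 69 called lower in ICH+P7C3-A20 than in sham (-0.46 ± 0.09, adjusted p = 0.0178), where 0.744% of all genes were called lower. In ICH+P7C3-A20 against ICH 5 of 29 and 9 of 40 were called higher (2.69% of all genes) and 0 lower (6.05% of all). Their medians were 0.41 and 0.40, beside -0.01 for all tested genes. Per pan-neuronal transcripts these turned to -0.16 and -0.15, beside -0.55. At edgeR's unadjusted p under 0.05, 42 of the 69 were higher (10.6% of all genes) and 0 lower (13.7% of all) in this comparison, and DESeq2 called 27 higher (5.86% of all) and 0 lower (9.6% of all). Kalrn, encoding kalirin, a protein of dendritic spines, had the smallest p in the first list (0.90 ± 0.18, adjusted p = 0.0156), and Lrfn5, a synaptic adhesion protein of the SALM family, in the second (0.69 ± 0.16, adjusted p = 0.0238).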

How the data were processed

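Polyadenylated RNA from 9 mouse brains was made into libraries that mark strand, per the labels' protocols. The submitters' processing notes name cutadapt 1.9, HISAT2 2.0.4 and StringTie 1.3.4d. Neither the genome build nor the step behind the counts is given in the sources used here. A single deposited table from the authors holds FPKM values and estimated counts for 35112 genes, of which 35 members have the identical position in GENCODE M21 (GRCm38). Estimated counts as deposited were tested with edgeR 4.0.16 (R 4.3.3; glmQLFit robust, glmQLFTest, two-sided, TMM, filterByExpr with minimum count 10 and minimum total count 15) in 1 fit of 3 group means with 6 residual degrees of freedom, adjusted by Benjamini-Hochberg over 21900 genes at 0.05. The deposited FPKM served for levels between genes and, as log2(FPKM + 1), for limma 3.58.1; DESeq2 1.42.0 was a further alternative. The scripts were tested on simulated data. Members and lists were chosen with earlier results of these data known. Values are given per library for each member called in any of the 3 comparisons and as ranges for the others; of the other synapse genes, the smallest p in each list is named. No 2 libraries of the same group were alike within sampling noise. Overlap of exons was read from GENCODE M21, and promoter windows from RefSeq (GRCm38.p6).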

Additional observations from a re-analysis of the deposited data

How the results depend on the processing

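No library's omission reversed a called member, and with RLE factors, a minimum count of 50, DESeq2, voom with sample weights or quantile-normalized FPKM at most 1 called member lost its call in any comparison. Counts below are members first and the 69 other synapse genes second. Fits differ in how many genes they call, and a share of all genes is given where it was counted. Without that share, a change in a count cannot be told apart from a change in calls over all genes. Scaling to pan-neuronal transcripts, which shifts all genes nearly alike, turned the sign of 10 of the 23 called values in ICH against sham (Dlg1 0.21, Dlg2 0.071, Dlg4 0.19, Dlgap3 0.081, Begain 0.0057, Baiap2 0.092, Nlgn2 0.15, Nlgn3 0.15, Lrrtm1 0.035, Lrrtm2 0.11) and 4 of 16 in ICH+P7C3-A20 against ICH (Dlg3 -0.019, Camk2b -0.069, Nlgn2 -0.16, Lrrtm3 -0.10), none of them called in the new direction, with member medians of 0.086 and -0.040. In ICH against sham it gave 4 and 5 called higher (37.4% of all genes) and 0 and 0 lower (0.237% of all). In ICH+P7C3-A20 against ICH it gave 2 and 0 higher (0.146% of all). In ICH+P7C3-A20 against sham it gave 1 member higher (3.23% of all) and 0 and 0 lower (0.00457% of all). Of the 10 markers it divides by, 8 were called lower after haemorrhage with TMM scaling (10.4% of all genes were).

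In ICH against sham, limma on log2(FPKM + 1) called 20 other synapse genes lower, with a pseudocount of 0.1 it called 22, and with no filter 11 and 14. Of the 23 members called by edgeR there, these 3 fits kept 16, 17 and 12. In ICH+P7C3-A20 against ICH these 3 fits called 7 and 2, 7 and 2, and 2 and 0 higher, and 0 members lower. DESeq2 called 27 (5.86% of all genes) and voom 25 other synapse genes higher. The fit on the compared groups alone kept 10 of the 16 member calls and called 0 members lower. A term for mitochondrial share class gave 23 and 31 higher (5.6% of all genes, beside 2.69% without the term). The 6 libraries with the higher share gave 7 and 9 higher (1.49% of all) and 0 members lower. In ICH+P7C3-A20 against sham, the limma fits on FPKM, quantile-normalized included, and the fit on the compared groups called 0 members lower, and apart from the quantile-normalized fit 0 other synapse genes lower. DESeq2 gave 1 higher (7.12% of all genes) and 2 and 5 lower (2.52% of all), voom 3 and 3 lower, and no filter 2 and 2 lower. The class term gave 1 higher and 2 and 5 lower, the 6 libraries 2 and 0 lower with a median of 0.10, and leaving out sham 3 and ICH+P7C3-A20 1 together gave 6 and 5 lower and 2 other synapse genes higher. The class term, the 6 libraries and the joint omission were chosen after seeing the data. The cause of these shifts was not tested.

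Leaving out 1 library at a time gave 15 to 23 members and 18 to 40 other synapse genes lower in ICH against sham; 1 to 20 and 0 to 21 higher, and 0 to 1 members lower, in ICH+P7C3-A20 against ICH; and 0 to 4 and 0 to 2 lower and 0 to 1 other synapse genes higher against sham. The member medians were -0.62 to -0.51, 0.43 to 0.58 and -0.17 to 0.055, the last 0.055 without sham 3. Equal replicate numbers were not taken to pair the mice. The correlations of the deviations of equal-numbered libraries were -0.26 to 0.25, which cannot exclude a pairing. Among libraries of different groups the largest was 0.40, for ICH 3 and ICH+P7C3-A20 2, both with the lower mitochondrial share. With the replicate number as a replicate block, 21 members were called lower and 1 higher in ICH against sham, 11 higher and 1 lower in ICH+P7C3-A20 against ICH, and 2 members and 2 other synapse genes lower against sham. Shares of all genes called with the block or with 1 library left out were not counted. The lowest count of a member in a library was 103, and the precision rests on 3 mice a group.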
